A study of Mus musculus with 26 samples.

Results

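Mouse embryonic stem cells (ESC) were compared with mouse embryonic fibroblasts (MEF), the cells from which the reprogramming in this study started, by RNA sequencing of 2 libraries of each. The 13955 genes described were those with a deposited value of 10 or more in at least 2 of these 4 libraries, out of 18198 genes in the table (76.7%), and they were chosen by level without regard to which cells were higher. Of these genes, 11748 reached 10 in libraries of both groups, 10437 of them in all 4 libraries. A further 1123 passed through ESC alone and 1084 through MEF alone, so these 2207 had to differ between the groups and their number is no result. At the edge of the threshold, 156 genes entered with a second-highest value of exactly 10 and 206 stayed out with 9.

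The ESC, labelled with the strain CBA/CaJ X C57BL/6J, were at passages 20 to 24 and grew in serum-free N2B27 with 2i and LIF. The MEF were at passage 2, in medium with 10% fetal bovine serum, and their labels name no strain. Cell type, medium, passage and strain therefore differ together and cannot be told apart in this comparison. The labels do not say whether the replicates were separate cultures. The p-values rest on the spread between replicates pooled over all 13 groups of the series, not on that of ESC and MEF alone, and this spread may be technical. The whole series held 26 libraries in 13 groups of 2, among them MEF infected with retroviruses for Pou5f1, Sox2 and Klf4 (OSK) and sampled on days 0, 1, 3, 5 and 7, and induced pluripotent stem cells (iPSC) at passages 5 to 8, grown in the same medium as ESC. The infected cells grew in iCD1 medium or in a serum medium with LIF, so they share neither the ESC nor the MEF medium. The remaining groups were OSK with added Jun (cJun) on days 0, 1, 3 and 7 and OSK with knockdown of Sap30 (shSap30) on day 7. Their libraries also entered the fit.

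ESC come from the inner cell mass of the early embryo and are kept undifferentiated by a network of transcription factors around Pou5f1 (Oct4), Sox2 and Nanog. LIF acts on them through gp130, Jak kinases and Stat3, while 2i is a pair of inhibitors, of Mek in the Erk pathway and of Gsk3 in the Wnt pathway. MEF are a mixture of mesenchymal cells of the mid-gestation embryo that secrete collagenous matrix, pull on it through actin stress fibres, and respond to serum through Srf and AP-1 transcription factors. In bulk RNA, fewer cells of a type and less RNA per cell cannot be told apart.

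The values were whole numbers that the authors had normalised to nearly the same distribution in every library, so the depth of sequencing is unknown, and the highest value, 21544, was shared by 10 genes in each library. Differences are given as log2(ESC value + 1) minus log2(MEF value + 1), averaged over libraries, which understates the change of low genes. Pearson's r between the log2 values of replicates was 0.957 for ESC and 0.925 for MEF. The markers of the labelled cells matched the labels in level: 7 of 7 ESC markers were at 10 or more in both ESC libraries and 0 of 7 in either MEF library. All 8 of 8 fibroblast markers were at 10 or more in both MEF libraries, but so were 4 of 8 in ESC replicate 1 and 6 of 8 in ESC replicate 2. The replicates were not alike in every respect. The summed value of the 8 fibroblast markers was 111 in ESC replicate 1 and 541 in replicate 2, against 58603 and 62478 in MEF, and the 5 macrophage and blood markers summed to 140 in MEF replicate 1 and 474 in replicate 2, against 55 and 67 in ESC. Endothelial markers (123 and 81 in ESC, 122 and 66 in MEF) and keratinocyte markers (7 and 11 in ESC, 34 and 9 in MEF) stayed low in both. Neural markers summed to 629 and 666 in ESC and 109 and 48 in MEF, primitive endoderm markers to 28 and 17 and to 212 and 40, and trophoblast markers to 352 and 388 and to 7 and 2. Of the 5 neural markers only 2 reached 10 in ESC replicate 1 and 1 in replicate 2, and Stmn2 made up most of the sum. The neural regulators Sox1 and Pax6 stood at 6 and 3 each in ESC. Most of the trophoblast sum in ESC came from Tfap2c. The 3 cartilage, bone and fat markers stood far apart in MEF, with a sum of 2146 in replicate 1 and 55 in replicate 2 against 26 and 18 in ESC. Most of the sum in MEF replicate 1 came from the cartilage collagen gene Col2a1, at 10 and 8 in ESC and 1904 and 25 in MEF. The longer list of 13 such genes did not share this pattern, with sums of 6073 and 6992 in ESC and 4282 and 6258 in MEF. The muscle regulators Myod1, Myog and Myf5 and the enzyme gene Ckm are not analysed here. The 10 other listed skeletal and cardiac muscle genes summed to 2034 in MEF replicate 1 and 435 in replicate 2, against 80 and 163 in ESC, and 9 of the 10 reached 10 in MEF replicate 1 and 2 of the 10 in replicate 2.

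Across all 16038 genes tested in a limma fit to the 26 libraries, 43.0% were called, with a Benjamini-Hochberg adjusted p below 0.05 and a log2 difference of at least 1, 22.4% higher and 20.6% lower in ESC. Among the 13955 genes, 6440 (46.1%) were called, 3408 higher in ESC and 3032 lower, and the values of the groups did not overlap for 6424 of them. The difference was at least 3 on the log2 scale for 1208 of the genes higher in ESC and 1412 of those lower. The median difference was 0.128 over the tested genes and 0.192 over the 13955, so a gene near that value moved with the typical gene. With the differences centred on the median gene, 6329 genes were called, 3036 higher and 3293 lower.

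**Figure D1:**
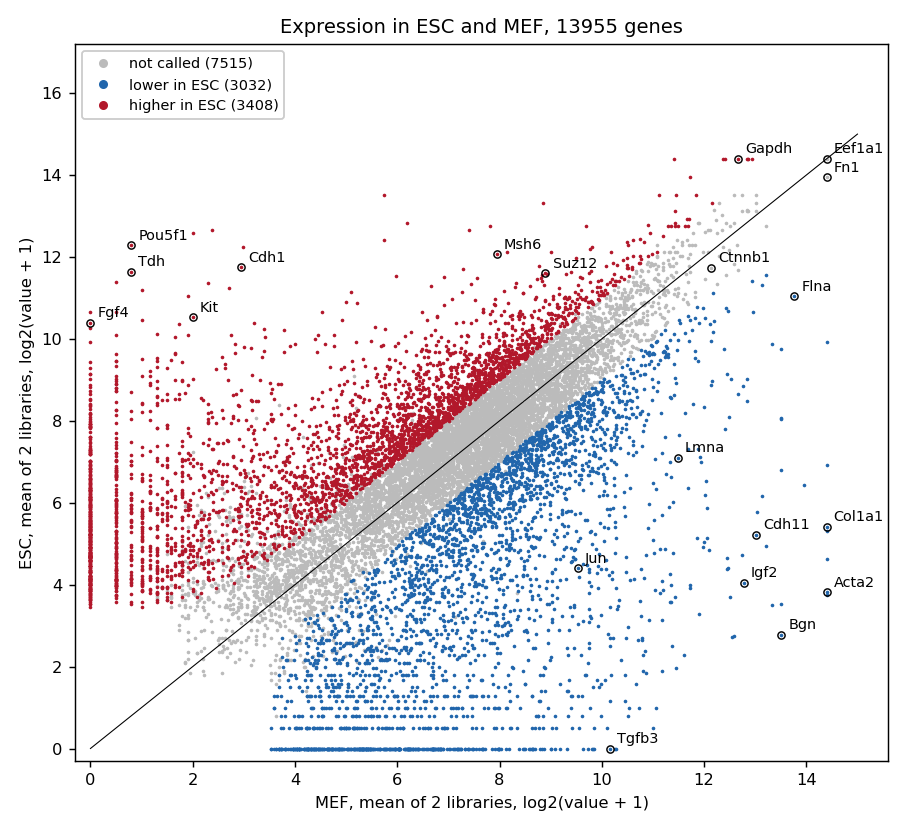
Mean log2(value + 1) of 2 ESC libraries (vertical axis) against that of 2 MEF libraries (horizontal axis) for 13955 genes, with the 3408 genes called higher in ESC in red, the 3032 called lower in blue and the rest grey. The line marks equal means, and columns and rows of points at the edges are genes with 0 or a few units in a whole group.

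The largest increases among the more highly expressed genes included pluripotency factors, their targets and the threonine enzyme Tdh. Pou5f1, the core pluripotency factor, had values of 5014 and 5015 in ESC and 2 and 0 in MEF (log2 difference 11.50, SE 0.97, limma adjusted p = 4.83e-08). Esrrb, an orphan nuclear receptor of the naive state, had values of 2402 and 3030 in ESC and 1 and 0 in MEF (log2 difference 10.90, SE 0.94, limma adjusted p = 3.41e-08). Tdh, the threonine dehydrogenase on which mouse ESC depend, stood at 2803 and 3614 in ESC and 2 and 0 in MEF (log2 difference 10.84, SE 0.61, limma adjusted p = 1.75e-10). The other large increases were in Zfp42, Tfcp2l1, Fgf4, Dppa5a, Tdgf1, Rex2, L1td1, Zfp987 and Sall4, none of which was above 15 in a MEF library. The largest decreases included secreted and contractile products of fibroblasts. Bgn, the small proteoglycan biglycan, had values of 0 and 46 in ESC and 11664 and 11664 in MEF (log2 difference -10.73, SE 1.17, limma adjusted p = 8.75e-07). Thbs1, the matricellular protein thrombospondin, stood at 2 and 60 in ESC and 21544 and 21544 in MEF (log2 difference -10.64, SE 1.0, limma adjusted p = 1.69e-07). Tgfb3, a TGF-beta ligand, was listed at 0 and 0 in ESC and 1120 and 1163 in MEF (limma adjusted p = 1.73e-12). The others were Acta2, Prss23, Ogn, Tgfb1i1, Ccn4, Lox, Ccn3, Tagln and Vcam1. For Bgn and Thbs1 the 2 ESC libraries differed more than the MEF libraries did, and their calls held with either ESC library left out.

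A different set of genes filled the very top of each cell type. In both ESC libraries the highest value belonged to Hsp90aa1 and Hsp90ab1 (chaperones), Pabpc1, Hnrnpu and Npm1 (RNA binding and nucleolar proteins), Eef1a1, Tuba1b, Gapdh and Atp5b. In both MEF libraries it belonged to Col1a1, Col1a2, Col3a1 and Col12a1, Fn1, Sparc, Thbs1, Acta2 and Eef1a1. Eef1a1, the translation elongation factor, was the gene on both lists. Since 10 genes shared each step of the scale, differences among genes at the top are cut short. Only 100 of the called genes had a mean of at least 1000 in both cell types. Of these, Hsp90aa1 had the largest increase, with values of 21544 and 21544 in ESC and 3275 and 2263 in MEF (log2 difference 2.98, SE 0.33, limma adjusted p = 6.84e-07). Eif2s2, Ncl, Ptma, Hnrnpu and Tuba1b came next, which are genes of translation, the nucleolus and RNA binding apart from the tubulin gene and Ptma (prothymosin alpha). Flna, the actin crosslinker filamin A, had the largest decrease among them, with values of 2032 and 2189 in ESC and 21544 and 8974 in MEF (log2 difference -2.72, SE 0.30, limma adjusted p = 6.46e-07). It was followed by Calu, Rian, Myl12a, Nid1 and Tuba1a. The tubulin genes Tuba1b and Tuba1a thus went opposite ways, with Tuba1b at 21544 and 21544 in ESC and 6923 and 4302 in MEF. Tuba1a had values of 1630 and 1671 in ESC and 6925 and 4611 in MEF. Alpha-tubulin genes are near-identical copies, so reads may have been split between them and these values are uncertain.

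The programmes of the comparison were read through lists of genes, each by the number of its genes that passed the threshold, the number called and the median difference, beside 22.4% higher, 20.6% lower and a median of 0.128 among all tested genes. For lists with genes at 0 in a whole group the median is also given without them, since no fold can be given against 0. In many lists some genes passed through a single group, also where no number is given below. Through ESC alone and MEF alone passed 4 and 5 genes of the TGF-beta and activin list and 3 and 7 of the Wnt list. For cadherins these numbers were 2 and 5, and for integrins 1 and 5. The contractile and receptor tyrosine kinase lists each had 5 through MEF alone. Genes that passed through a single group had to differ, so counts that include them are partly set by the threshold.

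**Figure D2:**
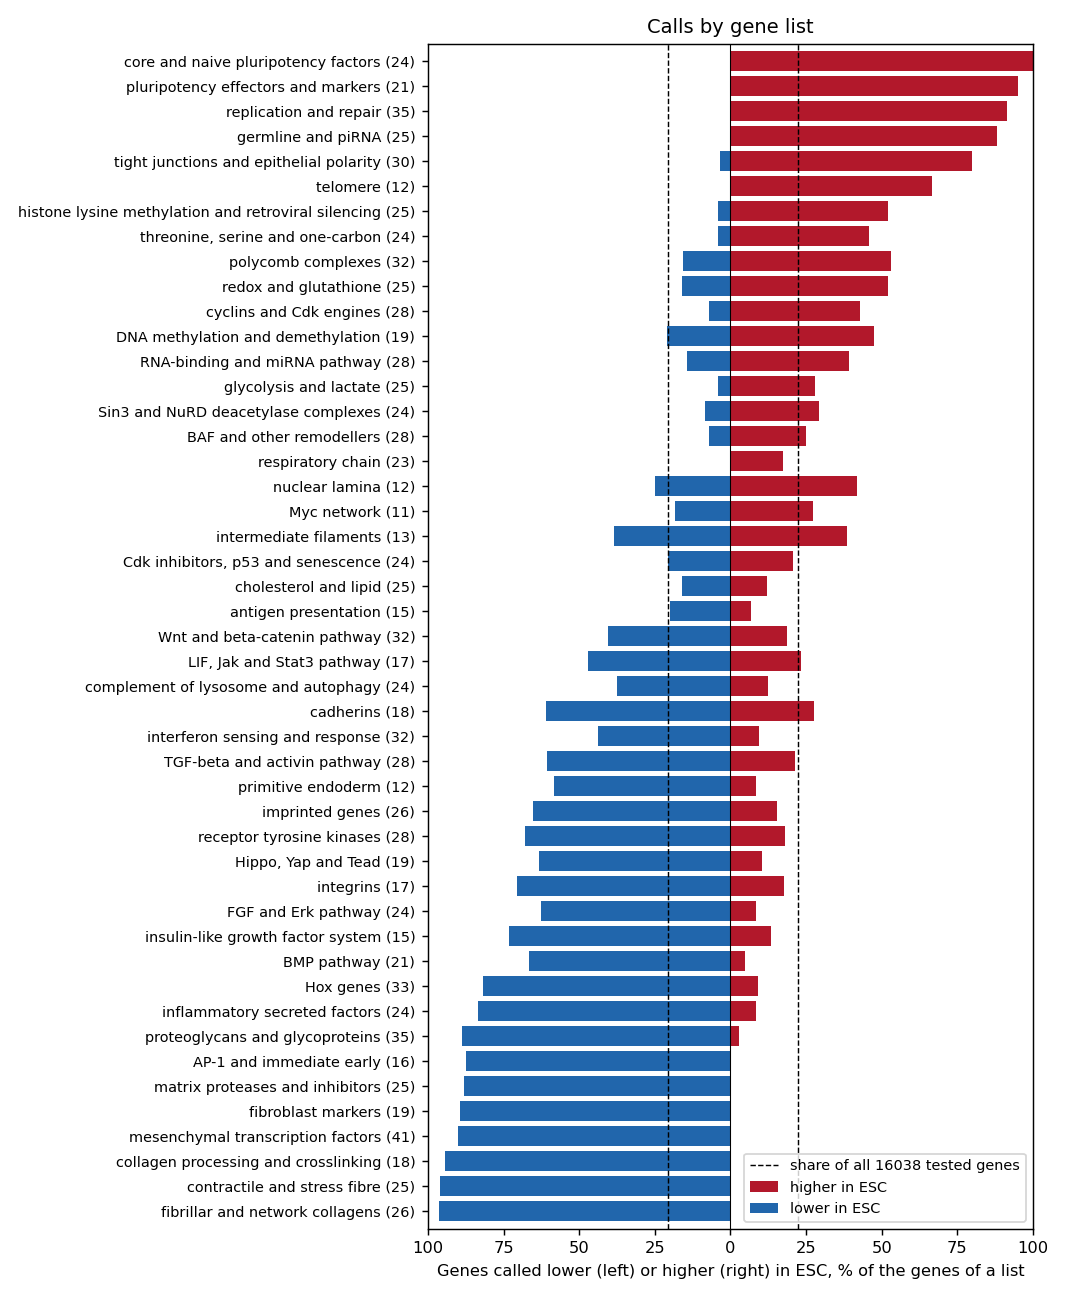
Percent of the genes of each list (number of genes in brackets, lists of 11 or more) that were called higher (right, red) or lower (left, blue) in ESC; dashed lines mark 22.4% and 20.6%, the shares among all tested genes. Matrix, contractile, mesenchymal and Hox genes lie at the lower end, and pluripotency, replication and germline genes at the upper end.

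All 24 genes listed as core and naive pluripotency factors passed the threshold, 15 of them through ESC alone, and all 24 were higher in ESC (median 7.81, and 7.08 without the 5 listed at 0 in MEF). Differences were smallest for Klf4 and Klf5, Kruppel-like factors that fibroblasts also express. Klf4 had values of 836 and 1585 in ESC and 496 and 265 in MEF (log2 difference 1.66, SE 0.50, limma adjusted p = 0.00908), and its call was lost without ESC replicate 2 (log2 difference 1.20, adjusted p = 0.109) and without MEF replicate 2 (1.21, adjusted p = 0.109). Sox2 had values of 2074 and 2151 in ESC and 6 and 1 in MEF (log2 difference 9.14, SE 0.48, limma adjusted p = 1.19e-10). Of 21 effector and marker genes, 16 of which passed through ESC alone, 20 were higher in ESC, the exception being Spp1. Spp1 encodes osteopontin and stood at 3421 and 4026 in ESC and 1407 and 5504 in MEF without a call, and without MEF replicate 2 it was called higher (1.40, adjusted p = 0.0134). Genes of the primed state and early lineages were mostly below the threshold: 10 of 15 did not reach it, among them Fgf5, Sox1, T and Mixl1. Of the 5 others, 3 of which passed through ESC alone, 4 were higher in ESC. Otx2, a head and epiblast factor, was listed at 49 and 42 in ESC and 0 and 0 in MEF (limma adjusted p = 7.24e-07). The methyltransferase Dnmt3b had values of 520 and 435 in ESC and 32 and 28 in MEF (log2 difference 3.95, SE 0.41, limma adjusted p = 3.67e-07). Of 9 listed genes of the 2-cell stage, 3 passed the threshold, all through ESC alone, and 2 were higher. Zscan4d, expressed in bursts by a few ESC at a time, was listed at 40 and 16 in ESC and 0 and 0 in MEF (limma adjusted p = 0.00413). Zscan4 genes are near-identical copies, so their values are uncertain. Of the primitive endoderm genes, the regulators Sox7 and Hnf4a were below the threshold. Gata4 stood at 15 and 8 in ESC and 37 and 8 in MEF without a call. Gata6, the earliest regulator of the lineage, had values of 8 and 7 in ESC and 173 and 29 in MEF (log2 difference -3.09, SE 0.62, limma adjusted p = 0.000413), or -1.82, adjusted p = 0.0127 without MEF replicate 1. The 7 of 12 that were lower in ESC were led by Col4a1, Pdgfra and Col4a2, genes of basement membrane and platelet-derived growth factor signalling that fibroblasts use as well. Through MEF alone passed 2 of the 12. Of 8 trophoblast genes past the threshold, 3 through ESC alone and 1 through MEF alone, 3 were higher and 1 lower. Tfap2c, a regulator of trophoblast and germ cells that naive ESC also express, stood at 347 and 360 in ESC and 1 and 0 in MEF (log2 difference 7.97, SE 0.71, limma adjusted p = 5.33e-08), while Cdx2 and Elf5 were below the threshold.

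Nearly all collagen and collagen processing genes and most proteoglycan and glycoprotein genes were lower in ESC, while laminin genes were split. Of 28 collagen genes 26 passed the threshold, 8 of them through MEF alone, and 25 were lower in ESC (median -6.87, and -7.49 without the 6 listed at 0 in ESC). Col1a1, the main chain of fibrillar type I collagen, had values of 8 and 200 in ESC and 21544 and 21544 in MEF (log2 difference -8.98, SE 0.87, limma adjusted p = 2.29e-07). Col6a3, of the beaded filaments that link cells to matrix, stood at 5 and 15 in ESC and 3415 and 4312 in MEF (log2 difference -8.61, SE 0.62, limma adjusted p = 7.67e-09). The cartilage collagen gene Col2a1, high in MEF replicate 1 alone, was among the 25, and it was not called without that library (-1.39, adjusted p = 0.447), without ESC replicate 1 (-4.63, adjusted p = 0.0638), without ESC replicate 2 (-4.34, adjusted p = 0.0805) or in a fit to the 4 libraries alone (-4.48, adjusted p = 0.128). Col18a1, of epithelial and vascular basement membranes, was the exception at 815 and 596 in ESC and 637 and 566 in MEF (log2 difference 0.21, SE 0.40, limma adjusted p = 0.684). Of the genes that process collagen 17 of 18 were lower (median -5.69). Lox, the lysyl oxidase that crosslinks collagen and elastin, had values of 2 and 44 in ESC and 11676 and 11676 in MEF (log2 difference -9.97, SE 0.91, limma adjusted p = 1.16e-07). Bmp1, the procollagen C-proteinase, stood at 2 and 3 in ESC and 1086 and 1821 in MEF (log2 difference -8.67, SE 0.26, limma adjusted p = 2.07e-13). Crtap, part of the prolyl 3-hydroxylase complex, had values of 606 and 683 in ESC and 826 and 871 in MEF without a call.

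Of 35 proteoglycan and glycoprotein genes 31 were lower in ESC (median -4.46). Eln, for elastin, stood at 0 and 1 in ESC and 1278 and 936 in MEF (log2 difference -9.60, SE 0.82, limma adjusted p = 3.14e-08). Fbn1, for the fibrillin of microfibrils, had values of 15 and 42 in ESC and 6131 and 7728 in MEF (log2 difference -8.04, SE 0.43, limma adjusted p = 1.19e-10). Fn1, for fibronectin, was near the top in both cell types at 11673 and 21544 in ESC and 21544 and 21544 in MEF (log2 difference -0.44, SE 0.28, limma adjusted p = 0.197). The basement membrane genes Nid1 and Nid2 went opposite ways. Nid1 had values of 2355 and 2797 in ESC and 6929 and 11667 in MEF (log2 difference -1.81, SE 0.47, limma adjusted p = 0.00358), although without MEF replicate 2 it was not called (-1.43, adjusted p = 0.051). Nid2 had values of 2128 and 2263 in ESC and 1090 and 500 in MEF (log2 difference 1.57, SE 0.33, limma adjusted p = 0.000672), or 1.01, adjusted p = 0.0243 without MEF replicate 2. Laminins split in the same manner, with 4 of 9 higher and 4 lower in ESC. Lama1, the alpha chain of the earliest embryonic basement membrane, stood at 354 and 749 in ESC and 64 and 64 in MEF (log2 difference 2.99, SE 0.35, limma adjusted p = 1.52e-06). Lama5, the alpha chain of epithelial basement membranes, had values of 1402 and 1609 in ESC and 403 and 264 in MEF (log2 difference 2.20, SE 0.32, limma adjusted p = 1.5e-05). Lama4, typical of mesenchymal and vascular basement membranes, stood at 11 and 32 in ESC and 1216 and 1655 in MEF (log2 difference -6.16, SE 0.38, limma adjusted p = 6.52e-10). Lamc1, the gamma chain shared by most laminins, had no call at 4013 and 5023 in ESC and 3410 and 2356 in MEF (log2 difference 0.66, SE 0.31, limma adjusted p = 0.0808). In ESC replicate 2, 16 of the 26 collagen genes were above replicate 1 and 4 below, by a median of 0.37 on the log2 scale, and the fibroblast marker sum was also higher there. The part of other cells in that difference was not tested, and the collagen, crosslinking and proteoglycan counts stayed within 1.5 times with either ESC library left out.

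Of 27 matrix protease and inhibitor genes 25 passed the threshold, 6 of them through MEF alone, and 22 were lower in ESC (median -5.42, and -4.98 without the 4 listed at 0 in ESC). Mmp14, the membrane-bound activator of gelatinase A, had values of 48 and 71 in ESC and 2035 and 3154 in MEF (log2 difference -5.42, SE 0.25, limma adjusted p = 2.32e-11). Timp3, an inhibitor bound to matrix, stood at 5 and 23 in ESC and 1993 and 3415 in MEF (log2 difference -7.76, SE 0.53, limma adjusted p = 3.47e-09). The interstitial collagenase gene Mmp13 had values of 0 and 0 in ESC and 287 and 554 in MEF (limma adjusted p = 2.43e-05). The Mmp13 promoter is printed because it carried, 35 bases before the gene start, the letters TGANTCA of an AP-1 site. These letters were in 4 of 15 promoters of this list (26.7%) and in 635 of 11795 promoters (5.38%) of all tested genes that had an entry. Promoters are the 250 bases before and 50 after a gene start in RefSeq (GRCm38.p6), searched on both strands, and 280 bases are printed 5′ to 3′ with the match in capitals; a match describes letters and not a bound site. The Mmp13 promoter lies on the + strand at chr9:7272264-7272543.
Mmp13: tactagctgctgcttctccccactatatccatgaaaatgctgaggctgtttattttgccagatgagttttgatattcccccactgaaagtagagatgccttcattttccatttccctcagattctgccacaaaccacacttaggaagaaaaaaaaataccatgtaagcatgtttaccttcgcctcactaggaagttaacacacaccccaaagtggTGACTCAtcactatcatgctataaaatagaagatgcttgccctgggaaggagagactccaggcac

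AP-1 and other immediate early genes, which serum and growth factors induce within minutes, were lower in ESC for 14 of 16 (median -4.60, and -4.49 without the 1 listed at 0). Of the 16, 6 passed the threshold through MEF alone. Jun, the AP-1 subunit added to OSK in other groups of the series, stood at 13 and 31 in ESC and 983 and 554 in MEF (log2 difference -5.13, SE 0.37, limma adjusted p = 3.76e-09). Fosl2, another subunit, had values of 1 and 3 in ESC and 895 and 913 in MEF (log2 difference -8.32, SE 0.27, limma adjusted p = 4.57e-13). Jund, the subunit least dependent on stimulation, stood at 543 and 444 in ESC and 781 and 593 in MEF without a call. Fos differed widely between the MEF libraries, at 1 and 22 in ESC and 1477 and 53 in MEF (log2 difference -5.38, SE 1.64, limma adjusted p = 0.0108), and it was no longer called without MEF replicate 1 (-2.99, adjusted p = 0.185), without ESC replicate 1 (-3.62, adjusted p = 0.137) or in a fit to the 4 libraries alone (-5.38, adjusted p = 0.0755).

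Contractile and stress fibre genes were lower in ESC for 24 of the 25 that passed the threshold (median -3.91, and -3.86 without the 1 listed at 0). The summed value of the 10 skeletal and cardiac muscle genes was also higher in MEF, mostly in replicate 1. In MEF replicate 2 only 2 of the 10 reached 10, against 3 of the 10 in each ESC library. Of the 4 past the threshold 2 were lower in ESC and 2 had no call. Acta2, smooth muscle alpha-actin, had values of 3 and 49 in ESC and 21544 and 21544 in MEF (log2 difference -10.57, SE 0.86, limma adjusted p = 3.14e-08). Tagln, which encodes the actin-binding protein transgelin, stood at 2 and 14 in ESC and 5483 and 6925 in MEF (log2 difference -9.84, SE 0.64, limma adjusted p = 1.77e-09). General cytoskeletal genes of the list had smaller differences. Myh9, non-muscle myosin IIA, had values of 2709 and 2709 in ESC and 8974 and 6923 in MEF (log2 difference -1.54, SE 0.21, limma adjusted p = 8.85e-06). Actn1, an actinin, stood at 1401 and 1500 in ESC and 4009 and 3263 in MEF (log2 difference -1.32, SE 0.27, limma adjusted p = 0.00043). Srf, the factor that binds CArG boxes in many of these genes, had values of 262 and 254 in ESC and 545 and 408 in MEF without a call, although without MEF replicate 2 it was called lower (-1.08, adjusted p = 0.0135). Mrtfa, its actin-controlled partner, stood at 139 and 164 in ESC and 534 and 607 in MEF (log2 difference -1.91, SE 0.23, limma adjusted p = 2.09e-06). A CArG box was in the promoter of Myl9, Cnn2, Vcl and Srf itself, 4 of 22 promoters of this list (18.2%), against 157 of 11795 (1.33%). The Myl9 promoter, from chr2:156775214-156775493 on the + strand, is shown as that of the gene with the largest difference among them, with its CArG box 161 bases before the start. Myl9 encodes the regulatory light chain of smooth muscle and non-muscle myosin, and its values were 1 and 6 in ESC and 1609 and 1990 in MEF (log2 difference -8.90, SE 0.76, limma adjusted p = 3.39e-08).
Myl9: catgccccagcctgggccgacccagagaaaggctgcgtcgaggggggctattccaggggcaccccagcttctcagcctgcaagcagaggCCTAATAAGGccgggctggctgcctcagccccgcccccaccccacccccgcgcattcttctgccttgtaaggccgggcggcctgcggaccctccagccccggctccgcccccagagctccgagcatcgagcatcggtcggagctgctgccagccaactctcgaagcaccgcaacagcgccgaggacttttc

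The Hippo pathway restrains Yap1 and Wwtr1 (Taz), coactivators of the Tead factors, and loss of that restraint under tension induces targets such as Ankrd1, Ccn1 and Ccn2. Of 19 genes of the pathway 12 were lower in ESC and 2 higher (median -1.39, and -1.32 without the 1 listed at 0). Yap1 had values of 688 and 747 in ESC and 1019 and 1297 in MEF without a call. Ankrd1 was listed at 0 and 0 in ESC and 478 and 407 in MEF (limma adjusted p = 7.83e-08), and Ccn2 had values of 230 and 107 in ESC and 3769 and 3769 in MEF (log2 difference -4.58, SE 0.83, limma adjusted p = 0.000184). The Tead genes themselves went both ways. Tead3 stood at 35 and 39 in ESC and 331 and 400 in MEF (log2 difference -3.27, SE 0.24, limma adjusted p = 4e-09). Tead4, which is needed for trophoblast, had values of 183 and 200 in ESC and 73 and 21 in MEF (log2 difference 2.25, SE 0.42, limma adjusted p = 0.000198), or 1.38, adjusted p = 0.00554 without MEF replicate 2. The Tead recognition letters GGAATG were in 10 of 15 promoters of the list (66.7%), against 1457 of 11795 (12.4%), and the 10 included Yap1 and Ajuba, of which Yap1 was not called and Ajuba was higher in ESC. The Ankrd1 promoter, chr19:36119815-36120094 on the - strand, held them 210 and 123 bases before the start.
Ankrd1: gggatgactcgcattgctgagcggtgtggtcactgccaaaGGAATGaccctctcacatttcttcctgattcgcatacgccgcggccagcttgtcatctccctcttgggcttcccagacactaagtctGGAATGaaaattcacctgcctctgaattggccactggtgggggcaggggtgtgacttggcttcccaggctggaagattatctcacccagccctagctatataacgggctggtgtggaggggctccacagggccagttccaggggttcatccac

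Genes of cell junctions went in both directions. Tight junction and polarity genes were higher in ESC for 24 of the 30 that passed the threshold, 17 of which passed through ESC alone (median 4.35, and 3.77 without the 9 listed at 0 in a group). Cldn4, a claudin, stood at 428 and 456 in ESC and 5 and 0 in MEF (log2 difference 7.50, SE 0.81, limma adjusted p = 4.95e-07). Spint1, an inhibitor of the membrane protease of St14, had values of 640 and 763 in ESC and 1 and 0 in MEF (log2 difference 8.95, SE 0.58, limma adjusted p = 1.06e-09). Esrp2, an epithelial splicing regulator, stood at 108 and 101 in ESC and 2 and 18 in MEF (log2 difference 3.80, SE 0.57, limma adjusted p = 2.02e-05), or 2.47, adjusted p = 0.00011 without MEF replicate 1. Cldn1 alone was lower, listed at 0 and 0 in ESC and 33 and 46 in MEF (limma adjusted p = 1.83e-05), and 5 genes had no call. Among those 5 was the scaffold gene Tjp1 at 1007 and 895 in ESC and 1053 and 823 in MEF. Cldn6, another claudin, was listed at 39 and 51 in ESC and 0 and 0 in MEF (limma adjusted p = 1.71e-06). Cadherins had 5 genes higher and 11 lower of 18 (median -2.76, and -2.06 without the 2 listed at 0). Cdh1, for E-cadherin, had values of 3614 and 3275 in ESC and 14 and 3 in MEF (log2 difference 8.80, SE 0.87, limma adjusted p = 2.76e-07). Cdh11, the mesenchymal cadherin, stood at 30 and 44 in ESC and 8974 and 7714 in MEF (log2 difference -7.80, SE 0.35, limma adjusted p = 1.22e-11). Cdh2, for N-cadherin, had values of 51 and 51 in ESC and 1108 and 1150 in MEF (log2 difference -4.44, SE 0.18, limma adjusted p = 5.2e-12). Dsg2, a desmosomal cadherin, stood at 722 and 699 in ESC and 8 and 0 in MEF (log2 difference 7.89, SE 0.69, limma adjusted p = 4.3e-08).

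Among integrins, the receptors for these matrices, 12 of 17 were lower in ESC and 3 higher (median -2.44, and -2.39 without the 1 listed at 0). Itgb1, the most widely shared beta chain, had values of 1139 and 645 in ESC and 11662 and 11663 in MEF (log2 difference -3.76, SE 0.29, limma adjusted p = 7.42e-09). The collagen receptor gene Itga11 stood at 0 and 2 in ESC and 693 and 1480 in MEF (log2 difference -9.19, SE 0.67, limma adjusted p = 4.09e-09). Itga6, Itgb4 and Itgb7 went the other way. Itgb4, the laminin receptor chain of hemidesmosomes, had values of 77 and 61 in ESC and 6 and 13 in MEF (log2 difference 2.81, SE 0.39, limma adjusted p = 1.06e-05). Caveolae, flask-shaped pits of the plasma membrane, had 6 of 7 listed genes lower in ESC (median -5.91), and 4 of the 7 passed through MEF alone. Cav1 stood at 0 and 3 in ESC and 2549 and 1133 in MEF (log2 difference -9.73, SE 0.55, limma adjusted p = 3.61e-10). Pacsin2, which also serves in endocytosis, had values of 461 and 400 in ESC and 554 and 496 in MEF. Intermediate filament genes were evenly split with 5 higher and 5 lower of 13 (median -0.42, and -1.11 without the 4 listed at 0). Vim, for the mesenchymal filament vimentin, stood at 824 and 1079 in ESC and 11673 and 8988 in MEF (log2 difference -3.44, SE 0.32, limma adjusted p = 8.34e-08). The neurofilament gene Nefl had values of 283 and 180 in ESC and 13 and 0 in MEF (log2 difference 5.92, SE 0.77, limma adjusted p = 6.43e-06). The keratin gene Krt42 stood at 167 and 165 in ESC and 0 and 0 in MEF (limma adjusted p = 1.67e-09). Of 12 genes of the nuclear envelope 5 were higher and 3 lower (median 0.98). Lmna, for the A-type lamins of stiff and differentiated nuclei, had values of 92 and 200 in ESC and 3406 and 2402 in MEF (log2 difference -4.39, SE 0.27, limma adjusted p = 4.25e-10). Lmnb1 stood at 2942 and 3155 in ESC and 1153 and 341 in MEF (log2 difference 2.28, SE 0.35, limma adjusted p = 2.68e-05), or 1.40, adjusted p = 8.23e-05 without MEF replicate 2. The lamin B receptor gene Lbr had values of 1034 and 865 in ESC and 401 and 181 in MEF (log2 difference 1.81, SE 0.30, limma adjusted p = 6.87e-05).

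**Figure D3:**
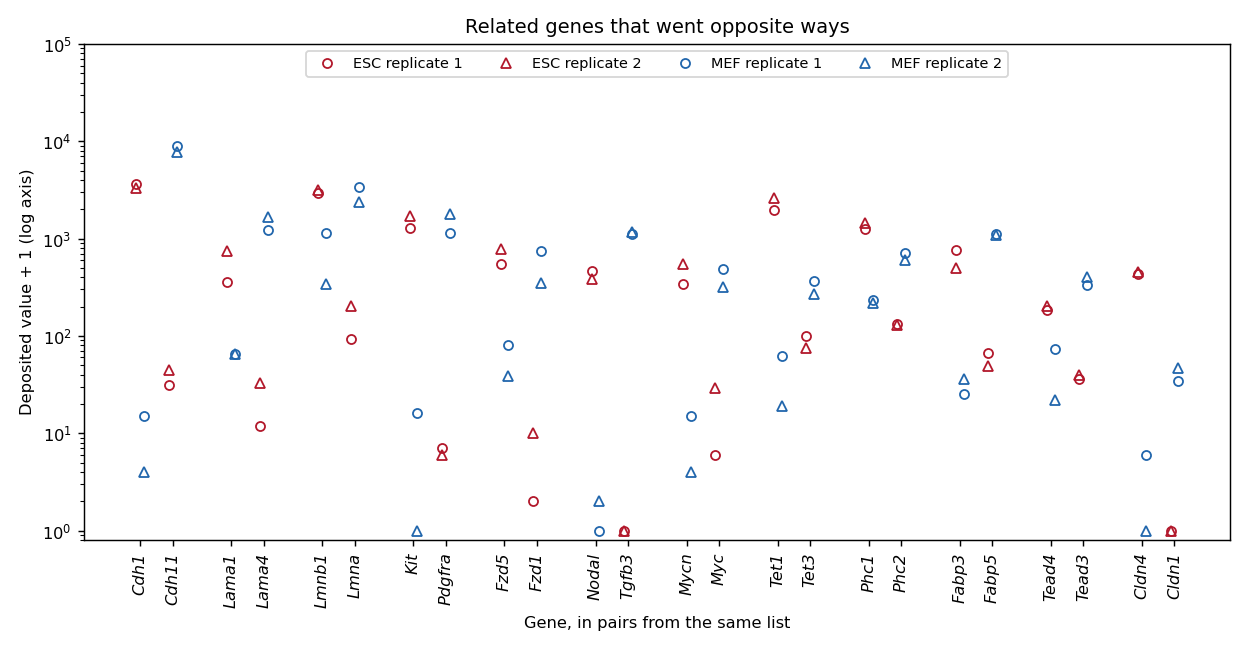
Value + 1 in each library on a log axis (circle, replicate 1; triangle, replicate 2; red, ESC; blue, MEF) for 12 pairs of genes, each pair from the same list. In every pair the first gene was called higher and the second lower in ESC, and values of 1 on the axis are genes listed at 0.

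Of the genes of LIF signalling, 4 of 17 were higher in ESC and 8 lower (median -0.25, and 0.13 without the 1 listed at 0). The receptor gene Lifr stood at 267 and 290 in ESC and 160 and 129 in MEF without a call. Its partner Il6st, for gp130, had values of 603 and 733 in ESC and 2624 and 2804 in MEF (log2 difference -2.03, SE 0.18, limma adjusted p = 4.83e-08). Stat3, the factor LIF activates, stood at 478 and 607 in ESC and 1177 and 1674 in MEF (log2 difference -1.38, SE 0.16, limma adjusted p = 1.55e-06). Osmr, the receptor chain for oncostatin M, had the largest decrease of the list, at 0 and 3 in ESC and 685 and 1114 in MEF (log2 difference -8.77, SE 0.69, limma adjusted p = 2.07e-08). Of the Stat3 targets, Pim1 had values of 869 and 857 in ESC and 264 and 239 in MEF (log2 difference 1.78, SE 0.51, limma adjusted p = 0.00753). Socs3 stood at 135 and 318 in ESC and 214 and 283 in MEF without a call.

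In the FGF and Erk pathway 15 of 24 genes were lower in ESC and 2 higher (median -1.32, with or without the 2 listed at 0). The kinase gene Map2k2 (Mek2) had no call at 598 and 579 in ESC and 564 and 604 in MEF. Some genes that Erk activity induces were among the decreases. Egr1 had values of 1 and 15 in ESC and 1769 and 749 in MEF (log2 difference -7.67, SE 1.21, limma adjusted p = 4.85e-05). The Erk phosphatase gene Dusp6 stood at 10 and 10 in ESC and 320 and 227 in MEF (log2 difference -4.62, SE 0.41, limma adjusted p = 5.3e-08). The feedback inhibitor gene Spry4 had values of 0 and 8 in ESC and 121 and 94 in MEF (log2 difference -5.17, SE 0.66, limma adjusted p = 5.04e-06). Fgf4, the ligand that ESC make, was listed at 1345 and 1344 in ESC and 0 and 0 in MEF (limma adjusted p = 2.14e-07). Etv5, an Ets factor of the same list, also went against the decreases, at 2035 and 1904 in ESC and 193 and 172 in MEF (log2 difference 3.43, SE 0.21, limma adjusted p = 5.88e-10). The Mek inhibitor is in the ESC medium only, and its part in these values was not tested.

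The Wnt list had 6 genes higher and 13 lower of 32 (median -0.51, and -0.39 without the 4 listed at 0). The increases included genes that beta-catenin is known to induce. Axin2, a feedback inhibitor, had values of 268 and 653 in ESC and 43 and 11 in MEF (log2 difference 4.19, SE 0.48, limma adjusted p = 1.17e-06). Notum, a secreted Wnt deacylase, stood at 452 and 661 in ESC and 3 and 0 in MEF (log2 difference 8.10, SE 0.80, limma adjusted p = 2.41e-07). Cdx1, a caudal homeobox factor, had values of 198 and 214 in ESC and 1 and 0 in MEF (log2 difference 7.19, SE 0.69, limma adjusted p = 1.19e-07). Sp5, a factor that limits Wnt targets, was listed at 151 and 461 in ESC and 0 and 0 in MEF (limma adjusted p = 5.93e-06). Beta-catenin itself (gene Ctnnb1) and Gsk3a had no call. Ctnnb1 stood at 3411 and 3411 in ESC and 4014 and 5023 in MEF. The decreases were mostly of ligands, receptors and secreted modulators of mesenchyme. Wnt5a had values of 0 and 2 in ESC and 733 and 839 in MEF (log2 difference -8.82, SE 0.53, limma adjusted p = 6.99e-10). Rspo3, which amplifies Wnt signals, was listed at 0 and 0 in ESC and 176 and 158 in MEF (limma adjusted p = 2.93e-13). Frizzled receptor genes went both ways. Fzd1 stood at 1 and 9 in ESC and 745 and 346 in MEF (log2 difference -6.83, SE 0.58, limma adjusted p = 3.88e-08). Fzd5 had values of 542 and 774 in ESC and 79 and 38 in MEF (log2 difference 3.54, SE 0.54, limma adjusted p = 3.29e-05). The Gsk3 inhibitor too is in the ESC medium only, and its part was not tested.

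Of 28 genes of the TGF-beta and activin list 6 were higher and 17 lower (median -1.85, and -1.33 without the 2 listed at 0). Nodal, a ligand of the epiblast, stood at 462 and 382 in ESC and 0 and 1 in MEF (log2 difference 8.22, SE 0.72, limma adjusted p = 3.85e-08). Its inhibitor Lefty2 had values of 1378 and 1462 in ESC and 1 and 1 in MEF (log2 difference 9.47, SE 0.55, limma adjusted p = 2.67e-10). Acvr2b, a receptor for Nodal, stood at 54 and 47 in ESC and 3 and 3 in MEF (log2 difference 3.68, SE 0.44, limma adjusted p = 1.87e-06). The TGF-beta receptor gene Tgfbr2 had values of 21 and 33 in ESC and 950 and 1564 in MEF (log2 difference -5.48, SE 0.34, limma adjusted p = 5.48e-10). Ltbp2, which encodes a matrix protein related to latent TGF-beta binding proteins, stood at 4 and 1 in ESC and 956 and 970 in MEF (log2 difference -8.25, SE 0.67, limma adjusted p = 1.54e-08). Smad2 and Smad4, the shared signal transducers, had no calls, with Smad4 at 304 and 344 in ESC and 432 and 553 in MEF. In the BMP list 14 of 21 were lower and 1 higher (median -2.28, and -1.72 without the 2 listed at 0), and 6 of the 21 passed through MEF alone. The ligand gene Bmp4 had values of 1 and 14 in ESC and 335 and 74 in MEF (log2 difference -4.86, SE 0.78, limma adjusted p = 4.47e-05). Id1 and Id3, which BMP signals induce, were both lower. Id3 stood at 8 and 67 in ESC and 728 and 688 in MEF (log2 difference -4.84, SE 0.78, limma adjusted p = 5.87e-05).

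Receptor tyrosine kinases were lower in ESC for 19 of 28 and higher for 5 (median -2.52). The related receptors Pdgfra and Kit went opposite ways. Pdgfra had values of 6 and 5 in ESC and 1131 and 1796 in MEF (log2 difference -7.78, SE 0.49, limma adjusted p = 6.75e-10). Kit had values of 1294 and 1701 in ESC and 15 and 0 in MEF (log2 difference 8.54, SE 0.90, limma adjusted p = 6.31e-07). Of the insulin-like growth factor system 11 of 15 genes were lower (median -5.15, and -2.66 without the 2 listed at 0). The growth factor gene Igf2 had values of 2 and 90 in ESC and 8981 and 5488 in MEF (log2 difference -8.73, SE 1.03, limma adjusted p = 2.16e-06). Its receptor gene Igf1r stood at 67 and 85 in ESC and 529 and 441 in MEF (log2 difference -2.66, SE 0.28, limma adjusted p = 3.96e-07). Igf2bp1, an RNA-binding protein that regulates Igf2 RNA among others, was higher, at 2546 and 2409 in ESC and 544 and 180 in MEF (log2 difference 2.98, SE 0.36, limma adjusted p = 2.14e-06). Igf2 shares an imprinted domain with H19, a non-coding RNA that had values of 6 and 133 in ESC and 11667 and 7721 in MEF (log2 difference -8.28, SE 1.06, limma adjusted p = 5.18e-06). Both were far higher in ESC replicate 2 than in replicate 1, as the fibroblast marker sum was, and both calls held with either ESC library left out.

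Imprinted genes, expressed from a single parental copy, were lower in ESC for 17 of 26 and higher for 4 (median -2.82). Dlk1, a Notch-related ligand, stood at 2 and 0 in ESC and 2401 and 176 in MEF (log2 difference -8.56, SE 0.80, limma adjusted p = 1.08e-07). Cdkn1c, a Cdk inhibitor that limits growth, had values of 1 and 10 in ESC and 612 and 425 in MEF (log2 difference -6.77, SE 0.61, limma adjusted p = 5.88e-08). Peg3, a zinc finger gene, stood at 264 and 400 in ESC and 3611 and 4616 in MEF (log2 difference -3.65, SE 0.32, limma adjusted p = 3.39e-08). Meg3, a non-coding RNA of the Dlk1 domain, had values of 520 and 1097 in ESC and 2354 and 2711 in MEF (log2 difference -1.74, SE 0.32, limma adjusted p = 0.000183). Snrpn, a splicing protein gene, went the other way at 598 and 600 in ESC and 197 and 165 in MEF (log2 difference 1.73, SE 0.26, limma adjusted p = 2.59e-05). Values do not tell the parental copies apart.

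The transcription factors of mesenchyme were lower in ESC for 37 of 41 and higher for none (median -4.52, and -4.50 without the 5 listed at 0), with 22 of the 41 past the threshold through MEF alone. Prrx1, a regulator of limb mesenchyme, stood at 0 and 14 in ESC and 2477 and 3161 in MEF (log2 difference -9.50, SE 0.81, limma adjusted p = 5.14e-08). Runx1, known from blood and mesenchyme, had values of 0 and 2 in ESC and 440 and 420 in MEF (log2 difference -7.96, SE 0.59, limma adjusted p = 7.42e-09). Twist1, a bHLH factor of mesenchyme, stood at 2 and 1 in ESC and 329 and 319 in MEF (log2 difference -7.05, SE 0.46, limma adjusted p = 1.4e-09). Snai2, a repressor of epithelial genes, had values of 6 and 4 in ESC and 186 and 304 in MEF (log2 difference -5.34, SE 0.62, limma adjusted p = 1.24e-06). The other 4 had no call, and one of them, Pbx3, had values of 149 and 147 in ESC and 280 and 266 in MEF (log2 difference -0.88, SE 0.22, limma adjusted p = 0.0024). Its difference fell short of 1, and it was called lower when centred on the median gene (-1.01, adjusted p = 0.000794). Hox genes, which record position along the body, were lower in ESC for 27 of 33 and higher for 3 (median -4.15, and -3.83 without the 11 listed at 0), and 24 of the 33 passed through MEF alone. Decreases lay in anterior, middle and more posterior members. Hoxb3 was listed at 0 and 0 in ESC and 138 and 95 in MEF (limma adjusted p = 1.51e-09). Hoxc6 stood at 2 and 1 in ESC and 138 and 211 in MEF (log2 difference -6.13, SE 0.37, limma adjusted p = 4.7e-10). Hoxb9 had values of 63 and 35 in ESC and 229 and 396 in MEF (log2 difference -2.65, SE 0.37, limma adjusted p = 1.09e-05). The 3 that were higher in ESC belong to posterior groups, although the posterior Hoxa13 was called lower. All 3 passed the threshold through ESC alone, so their direction was set by the threshold. Hoxc13 stood at 61 and 61 in ESC and 2 and 0 in MEF (log2 difference 5.16, SE 0.77, limma adjusted p = 2.08e-05). Hoxc12 was listed at 18 and 33 in ESC and 0 and 0 in MEF (limma adjusted p = 1.06e-06). Hoxb13 was listed at 20 and 12 in ESC and 0 and 0 in MEF (limma adjusted p = 4.95e-05). In the Myc network 3 of 11 genes were higher and 2 lower (median 0.60). Myc had values of 5 and 28 in ESC and 485 and 320 in MEF (log2 difference -4.90, SE 0.83, limma adjusted p = 9.4e-05). Mycn stood at 339 and 543 in ESC and 14 and 3 in MEF (log2 difference 5.79, SE 0.64, limma adjusted p = 7.12e-07). Their partner Max had values of 285 and 312 in ESC and 259 and 394 in MEF without a call. Mga, a Max partner that represses germline genes in ESC, stood at 1332 and 1831 in ESC and 543 and 465 in MEF (log2 difference 1.63, SE 0.19, limma adjusted p = 1.12e-06).

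Chromatin regulators showed more increases than decreases. Polycomb genes were higher in ESC for 17 of 32 and lower for 5 (median 1.05), all passing the threshold in both groups. Suz12, a core subunit of the complex that methylates histone H3 lysine 27, had values of 3041 and 3161 in ESC and 503 and 450 in MEF (log2 difference 2.70, SE 0.25, limma adjusted p = 7.03e-08). Its catalytic partner Ezh2 stood at 1200 and 1477 in ESC and 431 and 192 in MEF (log2 difference 2.21, SE 0.28, limma adjusted p = 4e-06). The accessory subunit gene Jarid2 had values of 1300 and 1379 in ESC and 144 and 138 in MEF (log2 difference 3.24, SE 0.29, limma adjusted p = 6.31e-08). Epop, an accessory subunit known from ESC, stood at 1056 and 1130 in ESC and 48 and 14 in MEF (log2 difference 5.33, SE 0.65, limma adjusted p = 2.95e-06). In the other polycomb complex Cbx7 had values of 743 and 901 in ESC and 17 and 25 in MEF (log2 difference 5.24, SE 0.39, limma adjusted p = 5.05e-09). The paralogues Phc1 and Phc2 went opposite ways. Phc1 stood at 1265 and 1435 in ESC and 232 and 219 in MEF (log2 difference 2.57, SE 0.22, limma adjusted p = 3.41e-08). Phc2 had values of 131 and 129 in ESC and 713 and 597 in MEF (log2 difference -2.32, SE 0.15, limma adjusted p = 6.52e-10). Bmi1 stood at 94 and 111 in ESC and 126 and 242 in MEF without a call.

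Of 19 genes of DNA methylation and its removal 9 were higher and 4 lower (median 0.97). Tet1 and Tet2, which oxidise 5-methylcytosine, were higher and Tet3 was lower. Tet1 had values of 1989 and 2619 in ESC and 61 and 18 in MEF (log2 difference 6.06, SE 0.58, limma adjusted p = 1.21e-07). Tet2 stood at 906 and 742 in ESC and 157 and 71 in MEF (log2 difference 2.94, SE 0.31, limma adjusted p = 3.71e-07). Tet3 had values of 99 and 74 in ESC and 364 and 266 in MEF (log2 difference -1.85, SE 0.33, limma adjusted p = 0.000135). Dppa3, which hinders maintenance methylation, stood at 486 and 605 in ESC and 0 and 1 in MEF (log2 difference 8.59, SE 0.74, limma adjusted p = 3.16e-08). Uhrf1, which guides the maintenance enzyme Dnmt1, had values of 3406 and 3608 in ESC and 727 and 261 in MEF (log2 difference 3.01, SE 0.33, limma adjusted p = 5.3e-07). Among remodellers 7 of 28 were higher and 2 lower (median 0.44), so their share of increases was close to the 22.4% of all genes. Of the ATPase genes of the BAF complex, Smarca2 (Brm) was lower and Smarca4 (Brg1) had no call. Smarca2 stood at 57 and 58 in ESC and 242 and 329 in MEF (log2 difference -2.28, SE 0.24, limma adjusted p = 3.75e-07). Smarca4 had values of 1612 and 1828 in ESC and 1633 and 1180 in MEF. Smarcd1, an accessory subunit, stood at 771 and 815 in ESC and 199 and 147 in MEF (log2 difference 2.21, SE 0.16, limma adjusted p = 3.16e-09). Smarcc2, a scaffold subunit, had values of 213 and 203 in ESC and 701 and 724 in MEF (log2 difference -1.77, SE 0.20, limma adjusted p = 7.08e-07). Genes of histone lysine methylation and retroviral silencing were higher for 13 of 25 (median 1.04). The corepressor gene Trim28 stood at 5481 and 8974 in ESC and 2189 and 1671 in MEF (log2 difference 1.87, SE 0.20, limma adjusted p = 5.3e-07). The germline silencer gene Morc1 had values of 660 and 790 in ESC and 3 and 0 in MEF (log2 difference 8.50, SE 0.72, limma adjusted p = 2.59e-08). Of the Sin3 and NuRD deacetylase genes 7 of 24 were higher (median 0.48). Sap30, the Sin3 subunit knocked down elsewhere in the study, stood at 328 and 343 in ESC and 67 and 36 in MEF (log2 difference 2.75, SE 0.32, limma adjusted p = 1.17e-06). The class II deacetylase gene Hdac7 had values of 52 and 89 in ESC and 656 and 586 in MEF (log2 difference -3.17, SE 0.24, limma adjusted p = 5.47e-09).

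All 35 replication and repair genes passed the threshold in both groups, and 32 were higher in ESC with none lower (median 2.44). Mcm2, of the replicative helicase, stood at 3150 and 2939 in ESC and 719 and 287 in MEF (log2 difference 2.74, SE 0.32, limma adjusted p = 1.12e-06). Brca1, of homologous recombination, had values of 828 and 911 in ESC and 124 and 63 in MEF (log2 difference 3.28, SE 0.31, limma adjusted p = 1.06e-07). The mismatch repair gene Msh6 had the largest difference of the list. Msh6 stood at 4616 and 4013 in ESC and 303 and 198 in MEF (log2 difference 4.13, SE 0.19, limma adjusted p = 2.24e-11). Rrm1, of ribonucleotide reductase, stood at 1195 and 1073 in ESC and 1655 and 777 in MEF without a call. The letters TTTNNCGC of an E2F site were in 12 of 26 promoters of the list (46.2%), against 958 of 11795 (8.12%), and all 12 genes were higher in ESC. The Msh6 promoter, chr17:87974800-87975079 on the + strand, held them 15 bases after the start.
Msh6: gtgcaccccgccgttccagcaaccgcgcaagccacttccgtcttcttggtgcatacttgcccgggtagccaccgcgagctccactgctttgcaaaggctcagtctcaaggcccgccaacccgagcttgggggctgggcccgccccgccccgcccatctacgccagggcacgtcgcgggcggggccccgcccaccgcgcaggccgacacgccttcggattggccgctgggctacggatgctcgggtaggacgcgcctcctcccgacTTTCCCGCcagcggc

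The MEF libraries differed from each other in these genes. In replicate 2, 34 of 35 replication genes were below replicate 1, with a median log2 difference of -1.11, and 25 of 28 cyclin and Cdk genes were below with a median of -0.70. Without MEF replicate 2, 27 of the 35 replication genes were still called higher. Of the 28 cyclin, Cdk and E2F genes 12 were higher in ESC and 2 lower (median 0.74), and without MEF replicate 2 only 5 were higher. Ccnb1, the mitotic cyclin, had values of 2405 and 1860 in ESC and 871 and 316 in MEF (log2 difference 2.01, SE 0.39, limma adjusted p = 0.000294), or 1.28, adjusted p = 0.0102 without MEF replicate 2. Ccnd2, a D-type cyclin, stood at 1 and 19 in ESC and 1608 and 1942 in MEF (log2 difference -8.13, SE 0.65, limma adjusted p = 2.3e-08). The other D-type cyclin genes had no call. Ccnd1 had values of 1162 and 1311 in ESC and 1211 and 500 in MEF, which was called higher without MEF replicate 1 (1.30, adjusted p = 0.028). Ccnd3 stood at 1268 and 1203 in ESC and 1194 and 814 in MEF. Telomere genes were higher for 8 of 12 and lower for none (median 1.43). Rif1, which binds telomeres and times replication, had values of 2478 and 2810 in ESC and 366 and 278 in MEF (log2 difference 3.04, SE 0.26, limma adjusted p = 3.16e-08). The telomerase gene Tert stood at 80 and 92 in ESC and 24 and 27 in MEF (log2 difference 1.71, SE 0.35, limma adjusted p = 0.000462). Cdk inhibitors and p53 genes were split at 5 and 5 of 24 (median -0.24, and -0.29 without the 1 listed at 0), close to the background shares. The count of increases was 3 without MEF replicate 1, and that of decreases 3 without MEF replicate 2. Trp53 itself had values of 2032 and 2074 in ESC and 768 and 564 in MEF (log2 difference 1.64, SE 0.21, limma adjusted p = 2.84e-06). Its target Cdkn1a (p21) stood at 964 and 950 in ESC and 909 and 1502 in MEF without a call. Cdkn2a, which rises in ageing cultures, stood at 36 in MEF replicate 1 and 350 in replicate 2, against 207 and 180 in ESC.

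**Figure D4:**
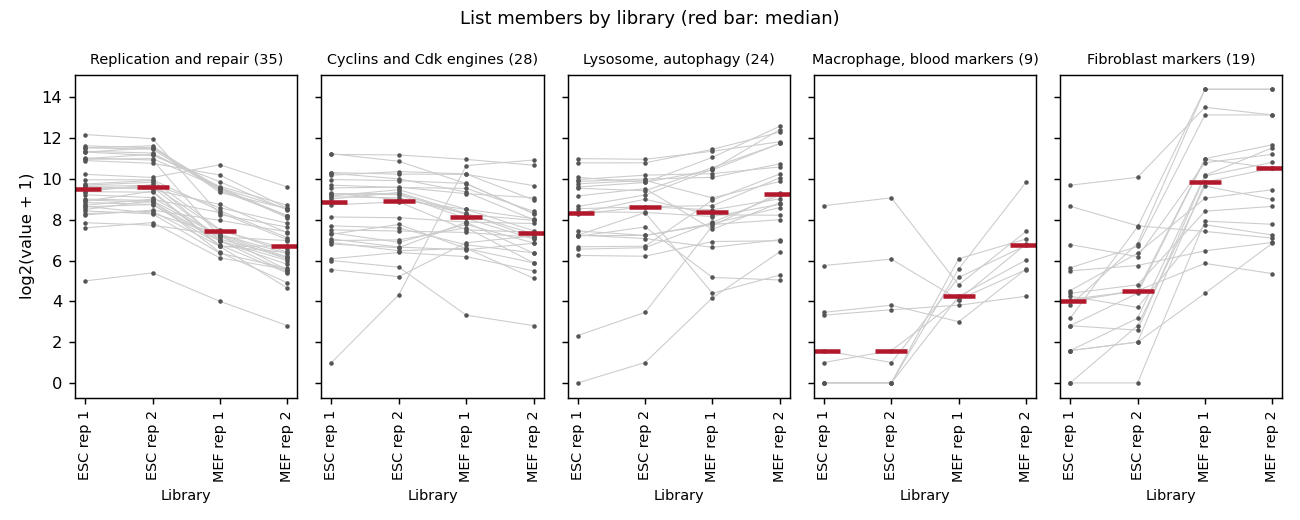
log2(value + 1) in each of the 4 libraries for the genes of 5 lists (number in brackets); each thin line joins a gene's values and red bars are medians. Replication genes are lower, and lysosomal and macrophage genes higher, in MEF replicate 2 than in replicate 1.

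Of 25 glycolysis genes 7 were higher and 1 lower (median 0.65), a share of 28.0% against 22.4% of all genes. The glucose transporter gene Slc2a3 stood at 6930 and 7721 in ESC and 134 and 39 in MEF (log2 difference 6.64, SE 0.55, limma adjusted p = 3.14e-08). Hexokinase 2 (Hk2) had values of 1417 and 1586 in ESC and 342 and 254 in MEF (log2 difference 2.34, SE 0.34, limma adjusted p = 1.47e-05). Ldhb stood at 1519 and 2151 in ESC and 279 and 206 in MEF (log2 difference 2.91, SE 0.40, limma adjusted p = 9.85e-06). Ldha had values of 2466 and 2258 in ESC and 2540 and 2258 in MEF without a call. Threonine, serine and one-carbon genes were higher for 11 of 24 and lower for 1 (median 0.79). Besides Tdh, these included the glycine cleavage genes Gldc and Amt. Gldc stood at 423 and 523 in ESC and 13 and 0 in MEF (log2 difference 6.98, SE 0.73, limma adjusted p = 3.7e-07). Amt had values of 469 and 486 in ESC and 10 and 15 in MEF (log2 difference 5.17, SE 0.47, limma adjusted p = 6.63e-08). The serine synthesis gene Phgdh stood at 751 and 751 in ESC and 1375 and 1189 in MEF without a call. Respiratory chain genes were higher for 4 of 23 (17.4%, below the background). Sdha, of succinate dehydrogenase, had no call and had values of 1792 and 1765 in ESC and 1671 and 1400 in MEF. Cox7a1, the muscle form of a cytochrome oxidase subunit, stood at 88 and 50 in ESC and 1 and 0 in MEF (log2 difference 5.57, SE 0.79, limma adjusted p = 1.14e-05). Cholesterol and lipid genes had 3 higher and 4 lower of 25 (median -0.21), with a fatty acid binding protein in each direction. Fabp3 had values of 754 and 498 in ESC and 24 and 35 in MEF (log2 difference 4.35, SE 0.58, limma adjusted p = 5.45e-06). Fabp5 stood at 66 and 48 in ESC and 1101 and 1090 in MEF (log2 difference -4.26, SE 0.30, limma adjusted p = 3.24e-09). Redox genes were higher for 13 of 25 and lower for 4 (median 1.06). The mitochondrial superoxide dismutase gene Sod2 had values of 1378 and 1437 in ESC and 206 and 168 in MEF (log2 difference 2.91, SE 0.22, limma adjusted p = 6.31e-09). The extracellular Sod3 stood at 0 and 0 in ESC and 63 and 147 in MEF (limma adjusted p = 8.75e-06). Gsta4, a glutathione transferase, had values of 1653 and 1591 in ESC and 40 and 12 in MEF (log2 difference 6.14, SE 0.60, limma adjusted p = 2.54e-07).

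Of 32 genes for secreted inflammatory factors and their receptors 24 passed the threshold, 13 of them through MEF alone, and 20 were lower (median -4.45, and -3.97 without the 4 listed at 0). Cxcl12, a chemokine of stroma, stood at 0 and 8 in ESC and 1518 and 1733 in MEF (log2 difference -9.08, SE 0.96, limma adjusted p = 6.18e-07). Csf1, the macrophage growth factor, had values of 0 and 9 in ESC and 1200 and 962 in MEF (log2 difference -8.41, SE 0.76, limma adjusted p = 1.06e-07). Ptgs2, the inducible cyclooxygenase, stood at 59 and 34 in ESC and 1439 and 1038 in MEF (log2 difference -4.74, SE 0.45, limma adjusted p = 1.49e-07). The NF-kappaB inhibitor gene Nfkbia went the other way, at 286 and 258 in ESC and 116 and 79 in MEF (log2 difference 1.49, SE 0.32, limma adjusted p = 0.000724). The subunit gene Rela had values of 121 and 153 in ESC and 357 and 423 in MEF (log2 difference -1.51, SE 0.23, limma adjusted p = 2.98e-05). In the interferon list 14 of 32 were lower and 3 higher (median -0.30, and -0.15 without the 3 listed at 0). Receptor genes were among the decreases. Ifngr2 stood at 13 and 24 in ESC and 234 and 286 in MEF (log2 difference -3.80, SE 0.38, limma adjusted p = 2.1e-07). Ifitm1, which protects stem cells from viruses, was an increase, at 608 and 819 in ESC and 29 and 39 in MEF (log2 difference 4.35, SE 0.51, limma adjusted p = 1.27e-06). Of 15 antigen presentation genes 3 were lower and 1 higher (median -0.23). B2m, the light chain of class I molecules, had values of 47 and 70 in ESC and 1099 and 1280 in MEF (log2 difference -4.35, SE 0.37, limma adjusted p = 2.62e-08). H2-K1, whose near-identical relatives make its value uncertain, stood at 217 and 142 in ESC and 118 and 205 in MEF without a call. Lysosome and autophagy genes were lower for 9 of 24 and higher for 3 (median -0.67). The cathepsin gene Ctsb had values of 777 and 905 in ESC and 2128 and 6129 in MEF (log2 difference -2.11, SE 0.33, limma adjusted p = 3.05e-05), or -1.34, adjusted p = 0.000301 without MEF replicate 2. Ctsk, a collagen-degrading cathepsin, stood at 4 and 10 in ESC and 207 and 641 in MEF (log2 difference -5.62, SE 0.72, limma adjusted p = 4.91e-06). Tfeb and Mitf, transcription factors of lysosomal genes, went the other way. Tfeb had values of 144 and 199 in ESC and 35 and 32 in MEF (log2 difference 2.30, SE 0.27, limma adjusted p = 1.19e-06). Mitf stood at 150 and 325 in ESC and 20 and 38 in MEF (log2 difference 2.95, SE 0.52, limma adjusted p = 0.000112). In MEF replicate 2, 22 of the 24 lysosome genes were above replicate 1, and so were 9 of 9 macrophage and blood genes past the threshold, among them Lyz2 at 47 and 915 and Ptprc at 67 and 132 in MEF, both listed at 0 in ESC. Of these 9 genes, 5 of which passed through MEF alone, 5 were called lower in ESC and 1 higher. The part of macrophages in these values was not tested.

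Germline genes, silent in most somatic cells, were higher in ESC for 22 of the 25 that passed the threshold and lower for none (median 4.70, and 3.67 without the 11 listed at 0 in MEF), and 17 of the 25 passed through ESC alone. Dazl, an RNA-binding protein of germ cells, had values of 482 and 343 in ESC and 12 and 0 in MEF (log2 difference 6.82, SE 1.17, limma adjusted p = 8.89e-05). Tex14, of the bridges between germ cells, was listed at 232 and 225 in ESC and 0 and 0 in MEF (limma adjusted p = 9.4e-08). Hormad1, of the meiotic chromosome axis, was listed at 264 and 221 in ESC and 0 and 0 in MEF (limma adjusted p = 8.34e-08). Of the genes that act in the piRNA pathway, Mael stood at 21 and 24 in ESC and 1 and 1 in MEF (log2 difference 3.55, SE 0.59, limma adjusted p = 5.95e-05), and Piwil1, Piwil4, Tdrd1 and Tdrd9 were below the threshold. The E-box CACGTG, which Max with its partners binds, was in 10 of 22 promoters of the list (45.5%), against 1137 of 11795 (9.64%). Of the 10 genes 7 were higher in ESC. The other 3, Sycp1, Taf7l and Brdt, were the only genes of the list without a call. Within the list the genes higher in ESC were thus not set apart by the E-box. The Hormad1 promoter, chr3:95559427-95559706 on the + strand, held it 57 and 20 bases before the start.
Hormad1: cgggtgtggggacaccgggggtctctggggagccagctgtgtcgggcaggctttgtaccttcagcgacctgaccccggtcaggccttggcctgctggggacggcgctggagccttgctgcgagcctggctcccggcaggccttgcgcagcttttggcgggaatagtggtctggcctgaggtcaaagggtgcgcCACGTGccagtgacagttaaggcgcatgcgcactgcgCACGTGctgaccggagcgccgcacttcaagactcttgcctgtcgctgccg

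Among RNA-binding proteins and the microRNA pathway 11 of 28 were higher and 4 lower (median 0.69). Lin28a, which blocks let-7 maturation, had values of 106 and 342 in ESC and 0 and 1 in MEF (log2 difference 7.08, SE 0.78, limma adjusted p = 6.76e-07). Trim71, itself a let-7 target, stood at 942 and 1278 in ESC and 27 and 16 in MEF (log2 difference 5.65, SE 0.47, limma adjusted p = 1.97e-08). Drosha had values of 1201 and 1419 in ESC and 592 and 393 in MEF (log2 difference 1.43, SE 0.21, limma adjusted p = 1.75e-05). Dicer1 stood at 598 and 637 in ESC and 716 and 466 in MEF without a call. The splicing factor genes Mbnl1 and Mbnl2, which repress the splicing pattern of ESC, were lower. Mbnl2 had values of 69 and 84 in ESC and 1265 and 1519 in MEF (log2 difference -4.17, SE 0.34, limma adjusted p = 1.76e-08). Mbnl3 stood at 119 and 120 in ESC and 152 and 105 in MEF without a call.

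By gene class, 24.3% of the 12963 protein-coding genes were higher in ESC and 22.6% lower, and 96 of 282 long intergenic non-coding RNAs (34.0%) were higher and 31 (11%) lower. The library kit does not mark strand, so an antisense gene and its partner cannot be told apart, and the 184 antisense genes are left out of this reading. By chromosome, chosen after the values were seen, the share of genes higher in ESC ran from 15.0% of 367 genes on chromosome 18 and 17.8% of 684 on chromosome 3 to 32.1% of 1075 on chromosome 11. The shares lower in ESC on these chromosomes were 29.2%, 29.2% and 19%.

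Of 11795 promoters of tested genes 57.5% were rich in GC and CpG, with at least 55% GC and an observed to expected CpG ratio of at least 0.6. The share was 55.0% among genes higher in ESC and 57.8% among those lower, and it was 34.2% of 828 promoters of genes higher by at least 3 on the log2 scale and 44.9% of 992 of those lower by as much. The 5 motifs searched were also counted over all genes called. TTTNNCGC was in 10.6% of promoters of genes higher in ESC and 6.56% of those lower, the CArG box in 1.06% and 1.94%, CACGTG in 10.4% and 8.1%, GGAATG in 12.0% and 13.6%, and TGANTCA in 5.41% and 5.94%, and these differences were not tested. In the 5 printed promoters no other motif of the set overlapped the marked one.

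The called genes of each list were then placed in the other libraries, on a scale from the MEF mean (0) to the ESC mean (100) for each gene, taking the median over the list. The scale was set by the ESC and MEF values, so positions are a description without a test. All genes higher in ESC stood at 40.6 and 37.8 in the day 7 OSK libraries and at 91.3 and 87.7 in iPSC, and all genes lower in ESC at 41.6 and 46.2 on day 7 and 81.1 and 73.8 in iPSC. The lists spread widely about these values on day 7. Tight junction and polarity genes had come to 90.6 and 101, and contractile genes to 85.2 and 92.8. Replication genes stood at 51.9 and 39.7 and polycomb genes at 35.6 and 40.9. Germline genes stood at 0.0 and 0.3, Hox genes at -0.6 and 5.5, and interferon genes at 2.2 and 14.5, near their place in MEF. In iPSC the germline genes were at 95.4 and 92.6 and the Hox genes at 100 and 78.5. Collagen genes, in contrast, were at 43.3 and 61.2 on day 7 and 47.2 and 37.9 in iPSC, and the caveolar genes at 29.4 and 38.7 and at 52.3 and 39.9.

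**Figure D5:**
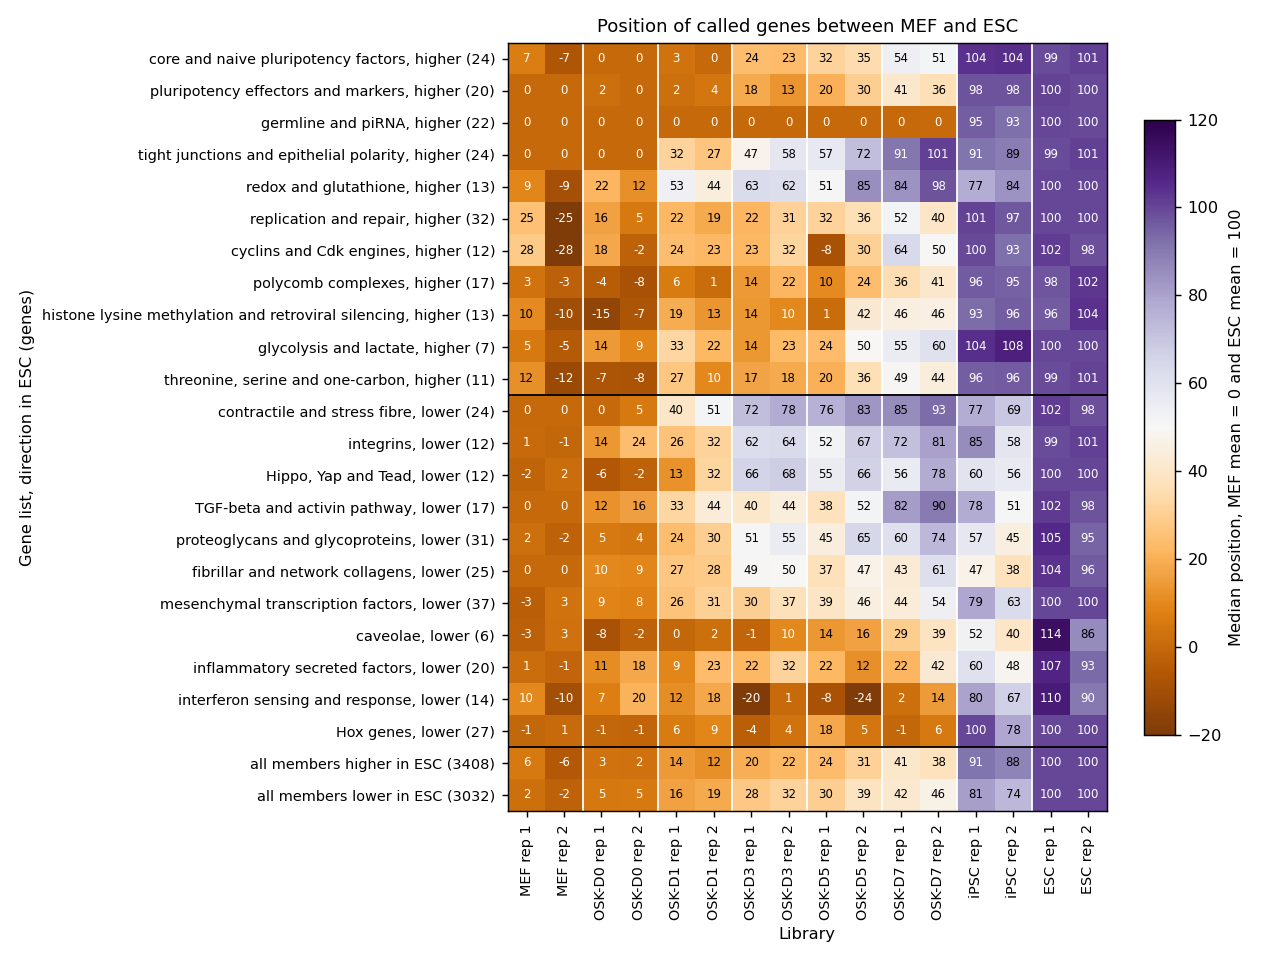
Median position of the called genes of each list (rows, number of genes in brackets) in MEF, the day 0 to day 7 OSK libraries, iPSC and ESC (columns, 2 libraries each), scaled for each gene so that the MEF mean is 0 and the ESC mean 100; the number in each cell is the median. Junction and contractile genes approach ESC by day 7, germline genes stay within 0.3 of 0 and Hox genes between -3.5 and 18.1 up to day 7, and collagen genes stay below 50 in both iPSC libraries.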

How the data were processed

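RNA-seq of 2 ESC and 2 MEF libraries was read from a table of 18198 genes by 26 libraries (TruSeq RNA libraries, NextSeq sequencing, per the labels' protocols). The submitters' processing notes name bcl2fastq, Bowtie2, RSEM and mm10, without versions. The deposited values are whole numbers on a normalised scale, treated as a score per gene because library totals lie between 4619641 and 4624161 and values at the same rank differ by at most 2 between libraries. They are therefore not read counts, depth is unknown, and no count test, interval or detection limit was computed. How the authors normalised them is not given in the sources used here.

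Genes with 10 or more in at least 2 of the 26 libraries (16038) were tested with limma 3.58.1 (R 4.3.3, statmod 1.5.0) on log2(value + 1), with 1 mean per group, a trended and robust variance and Benjamini-Hochberg adjustment over all of them. Only the 13955 genes with 10 or more in at least 2 of the ESC and MEF libraries are described. The fit was first run on simulated data with independent normal noise and changes added only to more highly expressed genes. That run did not copy the shared highest value or the close values below it, so it cannot show how the fit behaves at the top of the scale. Tables and figures were made with Python 3.11.15, pandas 2.3.3 and matplotlib 3.10.9. Promoters came from RefSeq, with an entry for 11795 tested genes, 1115 of which start more than 1000 bases from the start in the gene models.

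Members and the 58 gene lists were chosen with earlier results of these data known. Genes named were the 12 largest increases and decreases among genes with a mean of at least 200 in the higher group, up to 6 called genes each way and 3 uncalled genes per list, Pou5f1, Sox2, Klf4, Myc, Jun and Sap30, opposed relatives, and genes at the top of the scale. Other genes named for their role were chosen after their values were seen. Alternatives were a fit to 4 libraries, other added values (0.1, 10), other filters, adjustment over the described genes, no trend, centring, a replicate block and leaving out each library.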

Additional observations from a re-analysis of the deposited data

How the results depend on the processing

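The count of called genes, 6440 in the fit to all 26 libraries, was 5919 in a fit to the 4 libraries alone, 6228 and 6130 with 0.1 and 10 added, 6419 without a filter, 4475 with a mean of at least 50, 6475 with p adjusted over the described genes, 6425 without trend or robustness and 6329 when centred. Leaving out 1 library gave 5753 to 6545, and then the remaining library was assumed to vary like the other groups. The replicate numbers did not pair the samples (correlation of the replicate differences 0.0232), and a fit with the replicate block called 6490 genes. Of 689 list counts under alternatives 676 stayed within 1.5 times. With a mean of at least 50, which leaves fewer genes, the counts fell to 3 cadherins, 10 tight junction and 11 germline genes and 2 intermediate filament genes higher in ESC, and to 3 intermediate filament, 8 Hox, 8 interferon and 1 macrophage genes lower. Lower cartilage, bone and fat genes numbered 3 rather than 6 in the fit to 4 libraries, and ranged from 3 to 6 over the fits that left out 1 library. Over those fits, higher cyclin and Cdk genes ranged from 5 to 16 and Cdk inhibitor genes from 3 to 6 in each direction. The causes were not tested. No called gene named changed sign. Depth is unknown, and with 2 libraries a group the number of samples limits the precision.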
